A study of Mus musculus with 20 samples.

Results

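The 10 genes described here mark inhibitory interneurons, and they were found by name among the non-control probes of a mouse Agilent array. The names Gad1, Gad2, Slc32a1, Pvalb, Sst, Vip, Calb2, Lhx6, Dlx1 and Dlx2 matched 15 of 41174 probes. All 10 genes had a probe that entered the test, among 19345 genes. RNA came from cultures of dissociated hippocampal neurons of the mouse, treated on day 21 in culture for 24 h. The groups were 100 µM AP5, a competitive NMDA receptor antagonist, 100 nM NVP-AAM077 (NVP), an antagonist that prefers receptors with the Grin2a subunit, 1 µM of a compound the labels spell Ro25-4891 (Ro25), and vehicle (control), with 5 arrays each and 20 in all. The labels give no genotype, strain or animal age, and do not say whether the cultures of a group came from separate animals, so the p-values measure a spread between samples that may be technical. The labels call the cells neurons, but the cultures held other cells too. Gfap and Aqp4 of astrocytes, Olig1 and Mbp of oligodendrocytes, and Aif1 and Csf1r of microglia were above background on every array. Other markers of these cells were above background on too few arrays to be tested: P2ry12, Itgam, C1qa and C1qc of microglia, and Mog and Enpp6 of oligodendrocytes.

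Inhibitory interneurons release GABA, which glutamate decarboxylases (Gad1 and Gad2) make from glutamate and the vesicular transporter Slc32a1 loads into synaptic vesicles. In the hippocampus they are a minority among excitatory pyramidal and granule cells, and they fall into classes told apart by the calcium-binding proteins parvalbumin (Pvalb) and calretinin (Calb2) and the peptides somatostatin (Sst) and VIP. The homeodomain factors Dlx1 and Dlx2 act early in the ventral forebrain progenitors that give rise to them, and Lhx6 acts in the lineage from the medial ganglionic eminence, which gives the Pvalb and Sst classes.

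Each value below is the log2 ratio of a culture's RNA (Cy5) to a universal mouse reference RNA (Cy3) on the same array, after normexp background correction (offset 50) and loess normalization. A ratio describes 1 probe against the reference, so ratios of different genes do not rank their levels. Depth in an array is signal over background: between 58.6 and 69.3% of an array's probes were well above background in Cy5, and precision is limited by how many arrays there are. Of the genes described here 8 were well above background in the sample channel on all 20 arrays, Pvalb on 18 and Vip on 6. The arrays lay on 7 slides scanned on 3 days: the second day held AP5 1 and Ro25 2, the third held AP5 3, and no slide held AP5 or NVP arrays together with control arrays. Slide 5 held 4 of the 5 control arrays and nothing else, so any difference from control with slide as a block rests on control 3. That array shared slide 4 with 3 Ro25 arrays. On AP5 1 and control 5 a few spots lay far under their local background and were left out of the background fit, which changes values of AP5 1, as given below.

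Calb2 rose with AP5, Dlx1, Dlx2 and Gad2 averaged higher without passing the test, and the other 6 markers differed from control by −0.081 to 0.19 on the log2 scale. In the test of AP5 against control, 1 of the 10 interneuron markers passed, Calb2, which rose 1.42-fold, beside 8.61% of all genes (1665 of 19345, with 821 or 4.24% higher and 844 or 4.36% lower). At an unadjusted limma p under 0.05 there were 4 of 10 (Calb2, Dlx1, Dlx2 and Gad2), beside 21.1% of all genes. The median difference over the 10 markers was 0.12 on the log2 scale, beside −0.0041 over all genes, with 7 above and 3 below 0. With NVP none of the 10 passed, beside 0% of all genes, and 1 of 10 (Gad2) had an unadjusted p under 0.05, beside 6.8% of all genes. With Ro25 none passed, beside 0.0207% of all genes, and none had an unadjusted p under 0.05, beside 5.16% of all genes. Median differences over the 10 markers were 0.019 with NVP and 0.059 with Ro25. In none of the 6 comparisons were the 2 groups' arrays fully apart for any of the 10 markers, beside 8.31% of genes for AP5, 1.91% for NVP and 1.01% for Ro25 against control, 8.01% for AP5 against NVP, 4.47% for AP5 against Ro25 and 0.59% for NVP against Ro25.

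**Figure D1:**
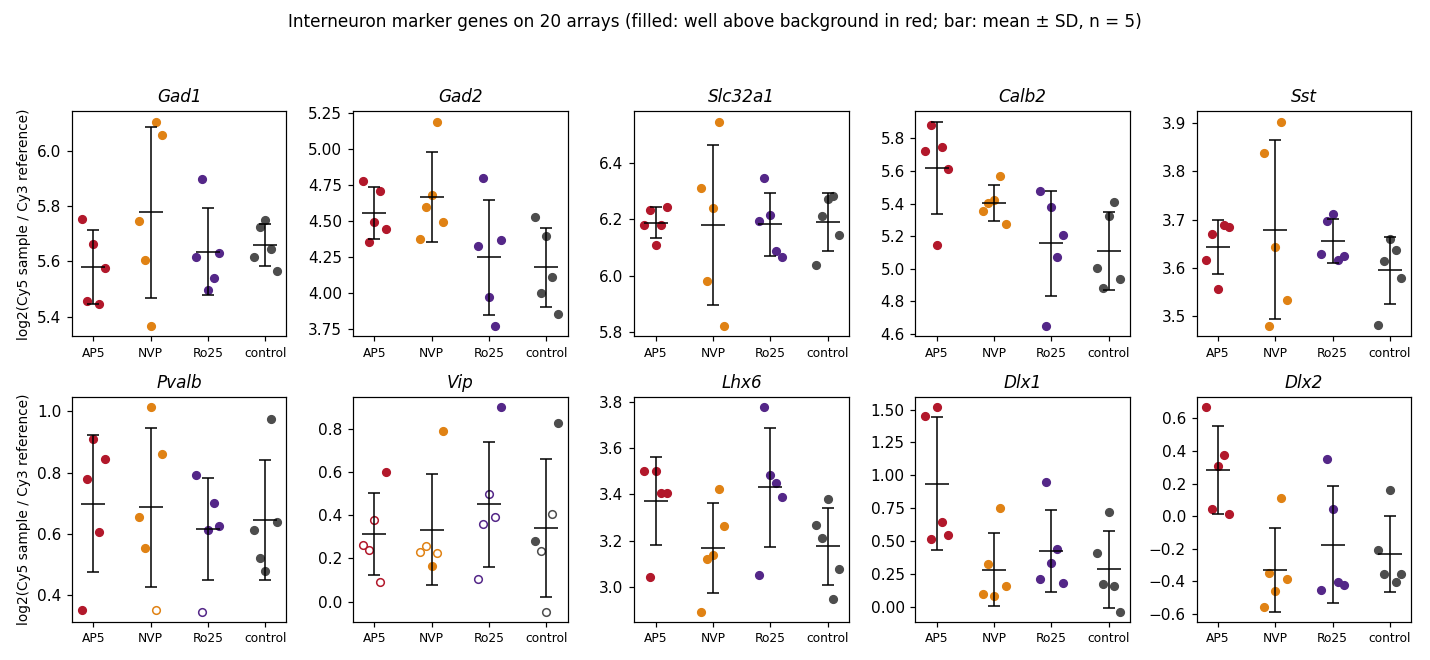
Log2 ratio of sample to reference for the 10 interneuron markers, 1 point per array and 5 arrays per group, with the mean and SD as bars; filled points were well above background in the sample channel. The AP5 mean is the highest of the 4 for Calb2, Dlx1 and Dlx2, the 4 means of Slc32a1 lie side by side with the NVP arrays most spread, and most Vip points are open; each panel has its own scale.

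Slc32a1, the vesicular GABA transporter that all GABAergic neurons need, was near control with each antagonist. Its log2 ratios were 6.18, 6.23, 6.11, 6.18 and 6.25 on AP5 arrays, 6.31, 5.98, 6.24, 6.55 and 5.82 on NVP arrays, 6.20, 6.35, 6.22, 6.09 and 6.07 on Ro25 arrays, and 6.04, 6.21, 6.27, 6.28 and 6.15 on control arrays. All 4 groups overlapped, and the NVP arrays were the most spread. The differences from control were −0.00097 with AP5, −0.0095 with NVP and −0.0071 with Ro25 (SE 0.10 each), and the 95% interval for AP5 ran from −0.21 to 0.21. With slide as a block they were −0.32 with AP5 and −0.31 with NVP (limma adjusted p = 0.536 and 0.766).

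Gad1, the decarboxylase isoform that supplies most of the neuron's basal GABA, was also near control. It had log2 ratios of 5.76, 5.46, 5.67, 5.45 and 5.58 on AP5 arrays, 5.75, 5.61, 5.37, 6.11 and 6.06 on NVP arrays, 5.62, 5.90, 5.50, 5.54 and 5.63 on Ro25 arrays, and 5.62, 5.73, 5.75, 5.65 and 5.57 on control arrays. The groups overlapped, and the 2 highest of all were NVP 4 and NVP 5. The difference was −0.081 with AP5 (SE 0.12, interval −0.32 to 0.16, limma adjusted p = 0.771), 0.12 with NVP and −0.025 with Ro25. A second Gad1 probe, for the same transcript, gave −0.28 with AP5 (SE 0.12, limma adjusted p = 0.191), the same direction at a larger size. Its Cy3 signal was well above background on only 7 of 20 arrays. Another Gad1 probe, on a different transcript, was well above background on 0 arrays and was not tested.

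Gad2, the isoform enriched at axon terminals, differed most from control in the NVP group. Its log2 ratios were 4.78, 4.36, 4.49, 4.71 and 4.44 on AP5 arrays, 4.38, 4.59, 4.68, 5.19 and 4.50 on NVP arrays, 4.33, 4.80, 3.97, 3.77 and 4.37 on Ro25 arrays, and 4.53, 4.00, 4.40, 4.11 and 3.86 on control arrays. Every AP5 and every NVP array lay above the control mean of 4.18, although both groups overlapped control. The difference was 0.49 with NVP (SE 0.18, interval 0.12 to 0.85, unadjusted p = 0.0114, limma adjusted p = 0.566) and 0.38 with AP5 (SE 0.18, interval 0.011 to 0.74, limma adjusted p = 0.218), so neither passed. With Ro25 it was 0.069 (interval −0.30 to 0.43). A fit that blocks on slide gave 0.19 for NVP and −0.21 for AP5 (limma adjusted p = 0.91 and 0.792).

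The promoters of Sst and Vip are shown because both are textbook targets of CREB, a factor that calcium entry through NMDA receptors is known to activate and that binds the cAMP response element. Those of Dlx1 and Dlx2 are shown because these genes varied together between arrays. The sequences are the 250 bases before the annotated start in the sense direction of the gene, from RefSeq on GRCm38.p6: chr16:23890845-23891094 (minus strand) for Sst, chr10:5638968-5639217 (plus strand) for Vip, chr2:71529195-71529444 (plus strand) for Dlx1 and chr2:71546755-71547004 (minus strand) for Dlx2. Capitals mark the full element TGACGTCA or its core TGACGT, searched on both strands, the core lying within the full element.

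Sst: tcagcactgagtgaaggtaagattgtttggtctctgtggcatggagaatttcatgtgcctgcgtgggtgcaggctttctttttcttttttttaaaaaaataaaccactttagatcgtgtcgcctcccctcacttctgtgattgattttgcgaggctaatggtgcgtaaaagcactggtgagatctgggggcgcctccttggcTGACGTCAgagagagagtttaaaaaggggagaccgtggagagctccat
Vip: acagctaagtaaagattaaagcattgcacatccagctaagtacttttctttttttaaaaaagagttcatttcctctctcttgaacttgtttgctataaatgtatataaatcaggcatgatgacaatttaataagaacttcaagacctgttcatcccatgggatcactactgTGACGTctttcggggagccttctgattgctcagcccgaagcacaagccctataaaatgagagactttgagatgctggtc
Dlx1: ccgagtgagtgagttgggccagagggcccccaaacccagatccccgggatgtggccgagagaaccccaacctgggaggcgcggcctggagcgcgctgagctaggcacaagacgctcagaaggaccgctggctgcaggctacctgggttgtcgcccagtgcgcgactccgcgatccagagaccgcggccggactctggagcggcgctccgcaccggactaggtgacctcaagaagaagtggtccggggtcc
Dlx2: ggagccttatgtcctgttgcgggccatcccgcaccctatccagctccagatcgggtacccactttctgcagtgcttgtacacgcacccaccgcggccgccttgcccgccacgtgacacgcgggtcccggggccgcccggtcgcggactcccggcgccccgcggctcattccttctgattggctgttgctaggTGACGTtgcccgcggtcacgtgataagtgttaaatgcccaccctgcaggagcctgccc

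The full element was in the Sst promoter, 48 to 41 bases before the start, and in 1.55% of 32851 RefSeq mouse promoters of that length. The core without the rest of the element was in the Vip promoter, 79 to 74 bases before the start, and in the Dlx2 promoter, 58 to 53 bases before it. The core was in 6.47% of all promoters. None of the 12 listed starts of the 9 matched genes held the homeodomain core TAATTA, which 4.84% of promoters held. A match describes letters only.

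Dlx1 and Dlx2, neighbouring homeobox genes on chromosome 2, were higher with AP5, but neither passed across all genes. With the probes that stood for the genes their differences were the largest among the 10 markers, with Calb2 at 0.510 just under Dlx2 at 0.515. The other Calb2 probes gave 0.61 and 0.71, so this order depends on the probe. The Dlx1 probe lies at chr2:71377152-71377211 and the Dlx2 probe at chr2:71387206-71387265, in the coordinates of build mm7 that the scanner files give. Dlx1 had log2 ratios of 1.45, 0.51, 1.52, 0.65 and 0.55 on AP5 arrays, 0.098, 0.32, 0.080, 0.75 and 0.16 on NVP arrays, 0.21, 0.95, 0.34, 0.44 and 0.18 on Ro25 arrays, and 0.41, 0.17, 0.72, 0.16 and −0.036 on control arrays. The AP5 arrays fell apart into 2 high ones, AP5 1 and AP5 3, and 3 that overlapped control 3. The difference with AP5 was 0.65 (1.57-fold, SE 0.21, interval 0.22 to 1.08, limma adjusted p = 0.056), and every AP5 array lay above the control mean.

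Dlx2 had log2 ratios of 0.67, 0.046, 0.31, 0.38 and 0.011 on AP5 arrays, −0.56, −0.35, −0.46, 0.11 and −0.39 on NVP arrays, −0.45, 0.35, 0.044, −0.41 and −0.42 on Ro25 arrays, and −0.21, −0.36, 0.16, −0.40 and −0.36 on control arrays. Every AP5 array was above 4 of the 5 control arrays, and control 3 overlapped them. The difference with AP5 was 0.51 (1.43-fold, SE 0.17, interval 0.17 to 0.86, limma adjusted p = 0.059). AP5 against NVP gave 0.61 for Dlx2 (1.53-fold, SE 0.17, interval 0.27 to 0.96, limma adjusted p = 0.0266), the 1 of 10 markers that passed there, beside 7.54% of all genes. Dlx1 differed by 0.65 in that comparison (limma adjusted p = 0.0597). The drugs were given at different concentrations, so this compares the treatments as given.

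The high Dlx1 arrays were those scanned on other days. AP5 1 and AP5 3 held the 2 highest Dlx1 ratios, and Ro25 2, which shared slide 6 and the second scan day with AP5 1, held the next at 0.95. Among the 17 arrays of the first scan day the AP5 difference was 0.28 for Dlx1 (limma adjusted p = 0.4) and 0.38 for Dlx2 (limma adjusted p = 0.228). A slide block turned both, to −0.17 for Dlx1 and −0.51 for Dlx2 (limma adjusted p = 0.799 and 0.341). On slide 6 alone AP5 1 exceeded Ro25 2 by 0.51 for Dlx1 and 0.32 for Dlx2, and on slide 2 AP5 5 exceeded the mean of 3 NVP arrays by 0.16 and 0.24. Dlx2 in AP5 against NVP was 0.47 on the first day (limma adjusted p = 0.133) and 0.41 with the block (limma adjusted p = 0.323), and the call was also lost without AP5 1, AP5 3, AP5 4, NVP 1, NVP 2 or NVP 3 (0.51 to 0.61, limma adjusted p 0.0576 to 0.0814). In AP5 against control Dlx1 and Dlx2 both passed when any 1 of AP5 2, AP5 5, NVP 4, Ro25 2 or control 3 was left out. Dlx1 then differed by 0.65 to 0.76 (limma adjusted p 0.0319 to 0.0475) and Dlx2 by 0.51 to 0.61 (limma adjusted p 0.0274 to 0.0485).

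**Figure D2:**
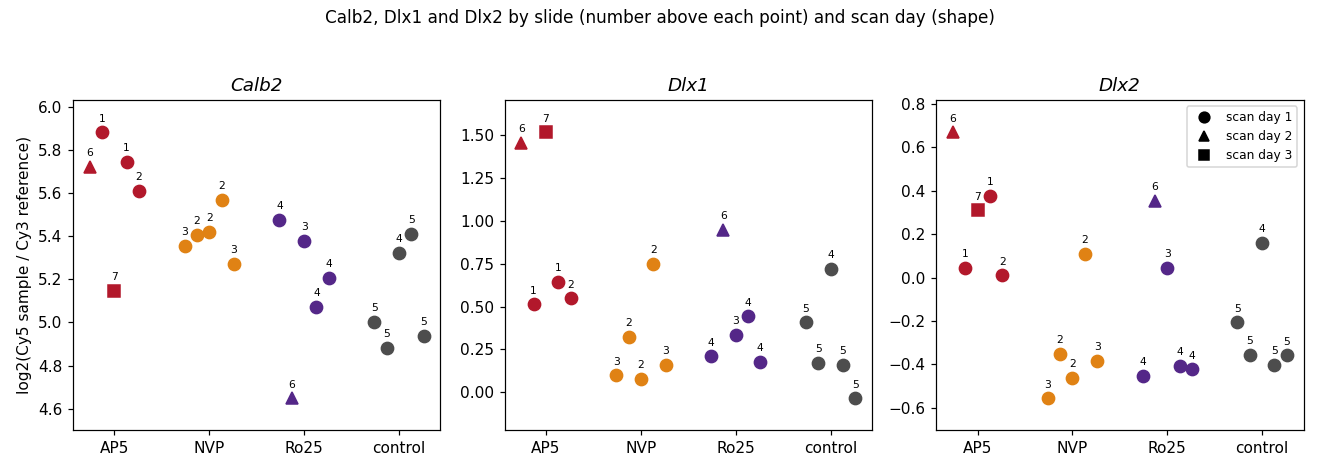
Log2 ratio of sample to reference for Calb2, Dlx1 and Dlx2, 1 point per array, with the slide number above each point and the scan day as its shape. AP5 1 and Ro25 2 (slide 6, triangles) and AP5 3 (slide 7, square) are the 3 highest Dlx1 arrays, while in Calb2 4 AP5 arrays lie above all control arrays and AP5 3 and Ro25 2 are lowest in their groups. The Calb2 points are of the probe that stood for the gene, and neither other Calb2 probe had Ro25 2 lowest in its group.

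Lhx6 did not pass in any comparison. Its log2 ratios were 3.50, 3.04, 3.50, 3.41 and 3.41 on AP5 arrays, 2.90, 3.12, 3.14, 3.42 and 3.26 on NVP arrays, 3.05, 3.78, 3.48, 3.45 and 3.39 on Ro25 arrays, and 3.27, 3.21, 3.38, 2.95 and 3.08 on control arrays. The groups overlapped, with Ro25 2 highest of all 20 arrays. Ro25 minus control was 0.25 (interval −0.0031 to 0.51, SE 0.12, limma adjusted p = 0.964), AP5 minus control 0.19 and NVP minus control −0.0090. A second Lhx6 probe was well above background on 14 arrays and gave −0.060 with AP5 (SE 0.10), the opposite direction.

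Calb2, the gene of calretinin, was the marker that rose with AP5. Its log2 ratios were 5.72, 5.88, 5.15, 5.74 and 5.61 on AP5 arrays, 5.36, 5.41, 5.42, 5.57 and 5.27 on NVP arrays, 5.47, 4.65, 5.38, 5.07 and 5.21 on Ro25 arrays, and 5.00, 4.88, 5.32, 5.41 and 4.94 on control arrays. AP5 3 lay among the control arrays and the other 4 AP5 arrays lay above all of them. The difference was 0.51 with AP5 (1.42-fold, SE 0.15, interval 0.20 to 0.82, limma adjusted p = 0.0349). RNA of a whole culture does not show which cells held the Calb2 transcript, so the rise is not assigned to an interneuron class.

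Both other Calb2 probes gave the same direction. One, printed 10 times on each array at chr8:108743305-108743364 (build mm7), differed by 0.61 with AP5 (SE 0.16, limma adjusted p = 0.0171), and the other, at chr8:108751135-108751194, by 0.71 (SE 0.15, limma adjusted p = 0.00435), in a fit over all probes. Their Cy3 signal was well above background on only 13 arrays (4 AP5 and 2 control) and 12 arrays (4 AP5 and 3 control). For the probe that stood for the gene it was so on all 20. The SD between the 10 spots of the first on one array had a median of 0.11, against an SD of 0.27 between arrays of a group. With the probe that stood for the gene, NVP gave 0.29 (interval −0.014 to 0.60, limma adjusted p = 0.759) and Ro25 0.046 (interval −0.26 to 0.35). AP5 against Ro25 gave 0.46 (SE 0.15, limma adjusted p = 0.0912) and AP5 against NVP 0.22 (limma adjusted p = 0.479). With that probe on all 20 arrays a difference between antagonists was therefore not shown for Calb2. That probe's ratio on Ro25 2 was the lowest of the 20 arrays, and its Cy3 signal there, 142.4, was the highest. Both other probes placed Ro25 2 within the range of the other Ro25 arrays, at 4.88 and 3.85. They gave 0.16 and 0.19 for Ro25 minus control, and 0.45 and 0.52 for AP5 against Ro25 (limma adjusted p = 0.146 and 0.0596). Among the antagonists as given, 0 of 10 markers passed in AP5 against Ro25, beside 4.13% of all genes, and 3 of 10 (Calb2, Dlx1 and Dlx2) had an unadjusted p under 0.05, beside 13.9%. That 0 became 1 without AP5 3, without Ro25 2 or with the mean over a gene's probes. In NVP against Ro25, 0 of 10 passed, beside 0%, and 2 of 10 had an unadjusted p under 0.05, beside 6.91%: Gad2 at 0.42 (interval 0.054 to 0.78) and Lhx6 at −0.26 (interval −0.52 to −0.0060). In AP5 against NVP the same count was 2 of 10 (Dlx1 and Dlx2), beside 19.7%.

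On the first scan day alone the Calb2 difference with AP5 was larger, at 0.63 (SE 0.12, limma adjusted p = 0.00548). The fit blocked on slide gave 0.59 (SE 0.32, limma adjusted p = 0.346). The call was lost without AP5 1, AP5 2, AP5 4, AP5 5, control 1, control 2 or control 5 (0.44 to 0.51, limma adjusted p 0.0563 to 0.0901). It was also lost when the background fit kept all spots, which moved AP5 1 and gave 0.35 (SE 0.21, limma adjusted p = 0.425).

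Sst marks dendrite-targeting interneurons. Its log2 ratios were 3.62, 3.67, 3.56, 3.69 and 3.68 on AP5 arrays, 3.84, 3.48, 3.64, 3.90 and 3.53 on NVP arrays, 3.63, 3.70, 3.71, 3.62 and 3.62 on Ro25 arrays, and 3.48, 3.61, 3.66, 3.64 and 3.58 on control arrays. The groups overlapped, and the NVP arrays held the 2 highest values and the lowest. The difference was 0.049 with AP5 (SE 0.071, interval −0.099 to 0.20, limma adjusted p = 0.778), 0.085 with NVP and 0.061 with Ro25. Sst had the smallest standard error of the 10 markers, and the SD between its 10 spots on one array had a median of 0.046.

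Pvalb and Vip, which mark basket cells and disinhibitory interneurons, were near the limit of detection. The reference channel was not well above background for Pvalb on any array and was for Vip on 1, and with an offset of 50 added to both channels the ratios of such dim spots lie near 0. They ran from 0.35 to 1.01 for Pvalb and from −0.047 to 0.90 for Vip. Pvalb was detected on 5 AP5, 4 NVP, 4 Ro25 and 5 control arrays, and differed by 0.053 with AP5 (SE 0.13, interval −0.21 to 0.32). Vip was detected on 1 AP5, 2 NVP, 1 Ro25 and 2 control arrays, and differed by −0.027 with AP5 (SE 0.16, interval −0.35 to 0.30). The highest Vip ratio of each group was on the array numbered 5 in the titles, at 0.60 for AP5 5, 0.79 for NVP 5, 0.90 for Ro25 5 and 0.83 for control 5. Differences of either gene between groups were not detectable at this signal.

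**Figure D3:**
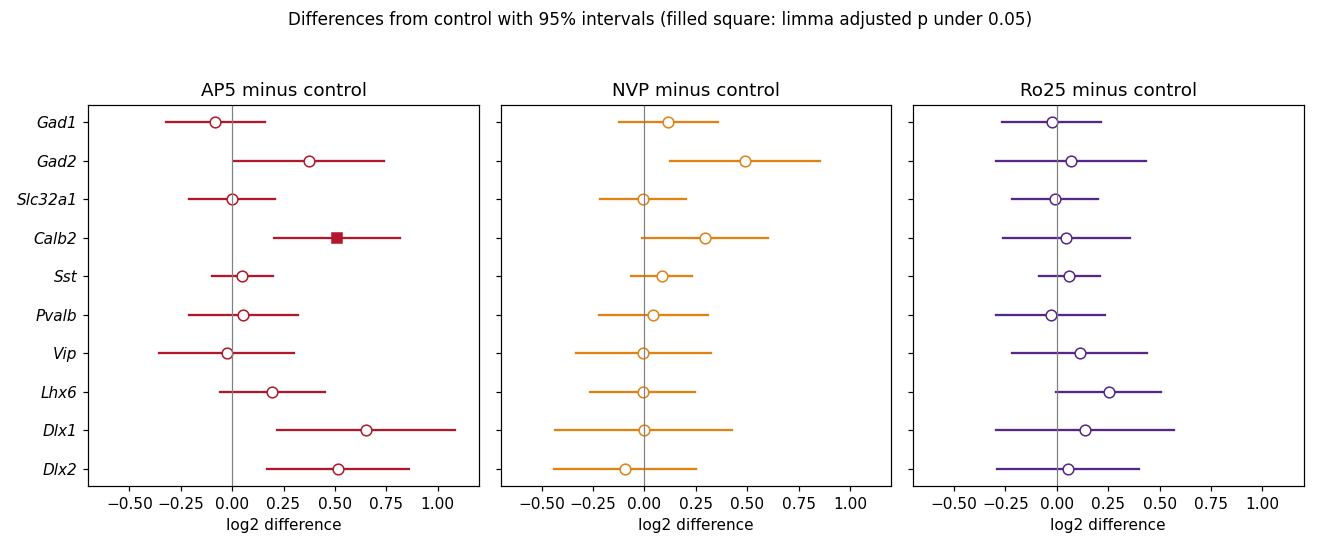
Log2 difference from control with its 95% interval for each interneuron marker, in 1 panel per antagonist; the filled square passed the limma test at an adjusted p under 0.05. Calb2 with AP5 is the filled one, Dlx1, Dlx2 and Gad2 with AP5 and Gad2 with NVP have intervals above 0 with open points, and in the Ro25 panel every interval holds 0.

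The markers did not vary as 1 block between arrays of a group. Over deviations from group means of the 8 genes detected on every array (28 pairs, n = 20 arrays, permuted within groups), Pearson's r had a median of 0.27 and ran from −0.49 to 0.89, with 23 pairs above 0. The arrays share slides, and each pair shares an array's normalization. No share over all pairs of genes is given, so whether these markers vary together more than other genes was not tested. Slc32a1 and Sst were the closest pair (r = 0.89, Spearman's rho = 0.84, permutation p = 0.00015 and 0.00039, adjusted over the 28 pairs 0.00336 and 0.00364), and without the 2 arrays farthest in Slc32a1 r was 0.85. In the Cy5 channel alone their r was 0.64 (permutation adjusted p = 0.024), below the 0.87 of Dlx1 and Dlx2 there. Pan-neuronal markers, as the mean deviation from each gene's mean over arrays, lay at 0.14, −0.12, −0.079, 0.15 and −0.082 on NVP 1 to NVP 5.

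Dlx1 and Dlx2 followed (r = 0.80, rho = 0.74, permutation p = 0.00024 and 0.001, adjusted 0.00336 and 0.007), with r = 0.83 without the 2 farthest arrays. Lhx6 went with Dlx2 (r = 0.79, rho = 0.80, permutation adjusted p = 0.00345 and 0.0014) and with Dlx1 (r = 0.71, rho = 0.73, permutation adjusted p = 0.00413 and 0.00364). These 4 pairs also passed on the first scan day alone, at r of 0.91, 0.81, 0.71 and 0.66. Without the 2 arrays farthest in Lhx6, r was 0.79 and 0.71. Gad1 with Lhx6 passed by rho alone (0.64, permutation adjusted p = 0.042). Gad2 with Dlx2, Gad1 with Dlx1 and Gad2 with Dlx1 passed by r alone (0.69, 0.59 and 0.58) and were not past the threshold by rho or on the first scan day. With the scanner's own log ratio those 3 pairs had r of 0.36, 0.093 and 0.10. Calb2 had r of −0.49 to 0.28 with the other 7 genes, none past the threshold. Its r against Dlx1 was −0.36 over all arrays, 0.34 on the first scan day and 0.11 without the 2 arrays farthest in Calb2, so its sign rests on a few arrays. These values of r use the probe that stood for Calb2, on which Ro25 2 was lowest, and neither other Calb2 probe had that array lowest. Pairs with the other probes were not tested.

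**Figure D4:**
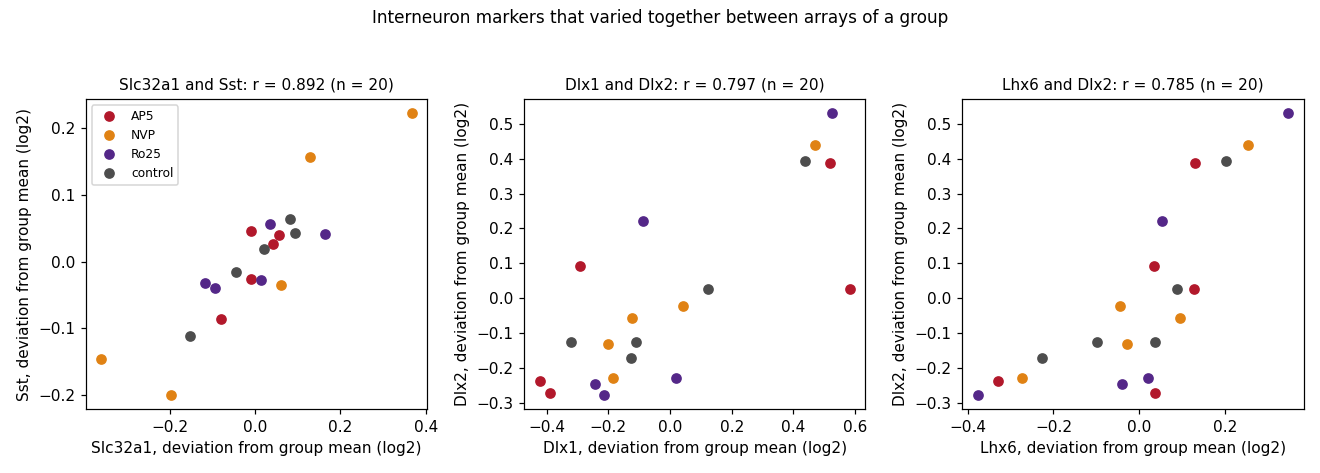
Deviations of each array from its group mean, in log2 units, for Slc32a1 and Sst (r = 0.892), Dlx1 and Dlx2 (r = 0.797), and Lhx6 and Dlx2 (r = 0.785), with 20 arrays coloured by group. Points of all 4 groups lie along the same rising band in each panel.

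By likeness over all 20 arrays, among 15131 other genes detected on every array, the profile nearest to the mean of Gad1, Gad2 and Slc32a1 was that of Slc7a14, a lysosomal membrane protein (r = 0.90), followed by 2310058N22Rik (0.86), Xkr6 (0.84), Pura (0.84), the unnamed NAP122876-1 (0.84), Cbl (0.84), BB303627 (0.84), Kmt2c (0.83), Map1b (0.83) and Zfpm2 (0.83). That mean was highest on NVP 4 and then Ro25 2, and without those arrays r was 0.44 for NAP122876-1, 0.80 for Slc7a14 and between 0.71 and 0.80 for the other 8. Spearman's rho over all 20 arrays was 0.46 for NAP122876-1 and 0.65 to 0.76 for the other 9. Nearest to Gad1 were Armcx4, Kcnb2 and Tbl1x (r = 0.73, 0.73 and 0.72) and to Gad2 Creb1 (the CREB gene), Zfp292 and Zfp148 (0.94, 0.91 and 0.91). Nearest to Slc32a1 were Srcin1, Ppp2r2c and 1700049J03Rik (0.90, 0.83 and 0.80), to Sst Stmn3, Camk2b and Ppp2r2c (0.89, 0.89 and 0.88), and to Calb2 Akt1, Nsun2 and Iscu (0.88, 0.83 and 0.80). Lhx6 was nearest to Klf12 and Cbln2 (0.91 each), Dlx1 to Glce, Tnik and TC1429987 (0.94 each) and Dlx2 to Kctd12, Grik5 and Ddi2 (0.94, 0.92 and 0.92). These are the highest of many correlations and describe these arrays only.

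Other genes of inhibitory neurons changed with AP5 singly, and the largest were in opposite directions. Of 24 tested markers of further interneuron subtypes, 1 rose, 1 fell and 22 did not pass, beside 8.61% of all genes past the threshold, so the count lies near the background. The median difference was 0.012, beside −0.0041 over all genes. Nos1, the neuronal nitric oxide synthase of a subset of interneurons that other hippocampal neurons also express, had log2 ratios of 2.15, 1.83, 1.96, 1.74 and 1.50 on AP5 arrays and −0.24, −0.86, −0.045, −0.29 and −0.59 on control arrays. The groups lay far apart, and Nos1 rose 4.72-fold (log2 difference 2.24, SE 0.18, limma adjusted p = 7.72e-08). It remained higher by 2.09 on the first scan day (limma adjusted p = 3.81e-06) and by 1.43 with slide as a block, where it did not pass (limma adjusted p = 0.141).

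Pthlh, the gene of a parathyroid hormone-related peptide found in some Pvalb interneurons, had log2 ratios of 0.70, 2.34, 1.18, 0.76 and 1.65 on AP5 arrays and 3.12, 3.03, 2.51, 4.74 and 4.14 on control arrays. The groups did not overlap, and Pthlh fell 4.53-fold (log2 difference −2.18, SE 0.44, limma adjusted p = 0.00293). With slide as a block the difference was 0.023 (SE 0.99, limma adjusted p = 0.992), and on the first scan day −1.92 (limma adjusted p = 0.0436). The following genes were chosen after their values were seen. The peptides of other interneuron classes, Npy and Cck, differed by 0.0019 and −0.029 with AP5, with limma adjusted p of 0.996 and 0.919, and the cannabinoid receptor Cnr1 by 0.43 (limma adjusted p = 0.316).

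Among 12 genes of GABA synthesis, uptake and breakdown, 1 rose and 11 did not pass, again near the 8.61% of all genes, with a median of 0.023. The one that rose was Slc6a11, a GABA transporter found mainly on astrocytes, at 2.62 ± 0.20 with AP5 and 2.01 ± 0.43 in control (SD, n = 5 each, 1.53-fold, limma adjusted p = 0.0211, and 0.173 on the first scan day). That call was lost without AP5 1, AP5 3, control 2 or control 5 (0.50 to 0.58, limma adjusted p 0.0531 to 0.0666). The mean over the probes of Slc6a11 gave 0.35 and the Cy5 channel alone 0.59, neither past the threshold (limma adjusted p = 0.0668 and 0.129). Median centring gave 0.54 and only the 2 groups compared 0.61, again without passing (limma adjusted p = 0.0649 and 0.0642). Abat, which breaks GABA down and was likewise chosen after its value was seen, differed by 0.16 (limma adjusted p = 0.424). None of 15 tested interneuron transcription factors passed, beside the same 8.61%, with a median of 0.11, and the one with the lowest adjusted p was Nr2f2 at 0.35 (limma adjusted p = 0.069). Of 13 genes of the inhibitory synapse and chloride transport 1 rose and 12 did not pass, beside the same 8.61%, with a median of 0.0034. That was Shisa7, which associates with GABA-A receptors, at 3.50 ± 0.10 with AP5 and 2.95 ± 0.23 in control (SD, n = 5 each, 1.46-fold, limma adjusted p = 0.0119), though it differed by only 0.061 in the Cy5 channel alone (limma adjusted p = 0.817). Gphn, the scaffold gephyrin, differed by −0.16 (limma adjusted p = 0.356). With slide as a block Slc6a11 and Shisa7 turned to −0.067 and −0.039. With all spots in the background fit they were 0.45 and 0.34, neither past the threshold (limma adjusted p = 0.217 and 0.443). Against control, none of these 4 lists had a gene past the threshold with NVP or with Ro25. Nos1 was also higher with AP5 than with NVP by 2.02 and than with Ro25 by 1.79 (limma adjusted p = 5.57e-07 and 2.85e-06). Of the 15 interneuron transcription factors 1 passed as higher with AP5 than with NVP and 0 as lower, beside 7.54% of all genes.

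**Figure D5:**
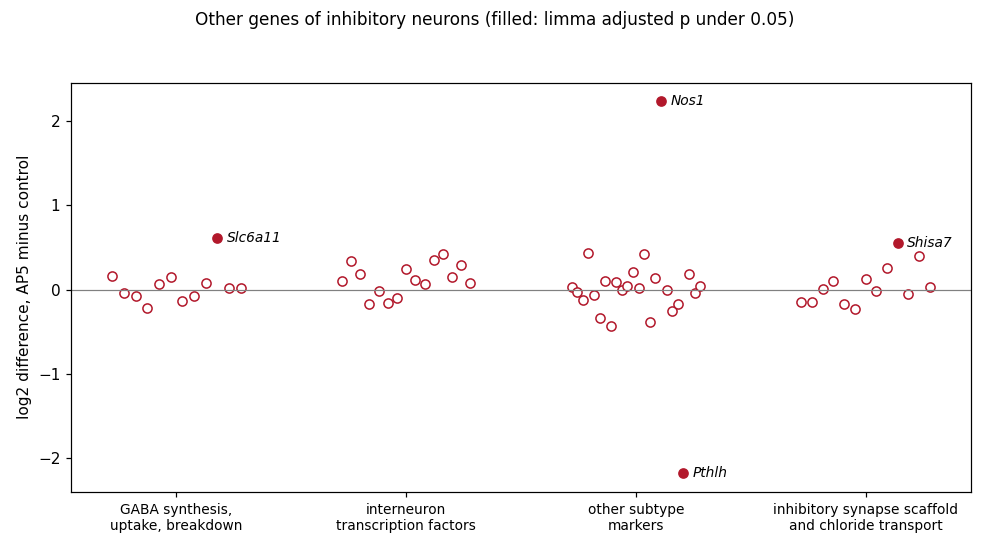
Log2 difference of AP5 minus control for 4 lists of other genes of inhibitory neurons, 1 point per gene, filled where the limma adjusted p was under 0.05. Nos1 at 2.24 and Pthlh at −2.18 lie far from the rest, and Slc6a11 and Shisa7 are the other filled points.

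Markers of other cell types moved with AP5 beside these results. Their counts cover only the genes that were tested and stand beside 8.61% of all genes past the threshold. Of 13 excitatory neuron markers tested, 6 rose against control and none fell (Bhlhe22, Dkk3, Emx1, Tbr1, Wfs1 and Neurod1, named for having passed). The other 7 did not pass, among them the list's defining markers Neurod6 at −0.42 and Slc17a7 at 0.016 (limma adjusted p = 0.0693 and 0.951). In AP5 against NVP 2 of the list were higher with AP5 and 1 was lower, and in AP5 against Ro25 1 was higher and 1 lower. The mean deviation of that list ran from 0.11 to 0.32 on AP5 arrays and from −0.32 to −0.027 on control arrays. The mean deviation of the 10 interneuron markers ran from 0.031 to 0.24 on AP5 arrays and from −0.17 to 0.019 on control arrays. Of 14 pan-neuronal markers 2 rose (Map2, by 0.35, limma adjusted p = 0.0459, and Stmn2), while none of 14 astrocyte markers passed, with list means of −0.26 to 0.45 on AP5 arrays and −0.45 to 0.27 on control arrays. The astrocyte list was highest on the array numbered 5 in all 4 groups. Of 8 microglia markers tested, out of 12 listed, 1 rose (Csf1r, by 0.44, limma adjusted p = 0.00299) and 1 fell (Cd68). With slide as a block Csf1r turned to −0.12 (limma adjusted p = 0.774). Of 9 fibroblast and vascular markers 1 rose (Kdr) and 1 fell (Col1a2), and none of 11 oligodendrocyte and 8 Cajal-Retzius markers passed. All 13 defining markers were detected on all 20 arrays, so no defining marker was at 0, and the 11 of them that did not pass differed by −0.42 to 0.29 with AP5. With all spots in the background fit Map2 differed by 0.16 (limma adjusted p = 0.725). A slide block turned it to −0.20 (limma adjusted p = 0.663). It did not pass on the first scan day (0.24, limma adjusted p = 0.324) or without any of AP5 1, 3 or 4, NVP 1, 2 or 5, Ro25 1, 3 or 4, or control 1, 2, 4 or 5 (0.28 to 0.36, limma adjusted p 0.0502 to 0.133). The part of these cell types in the interneuron results was not tested. In RNA of a whole culture, more cells of a type and more RNA per cell cannot be told apart.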

How the data were processed

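RNA of 20 cultures was hybridised on 2-colour Agilent arrays, the culture in Cy5 and a universal mouse reference in Cy3, with no dye swap. The scanner files, as deposited, hold spot intensities and local backgrounds whose program the file headers give as Feature Extraction 10.7.3.1, while the submitters' processing notes name Agilent Feature Extraction 11.0. They also hold the scanner's log10 ratio of Cy5 over Cy3, computed before deposit from background-subtracted, dye-normalized signals, per the file headers. The authors' deposited value table holds log2 values for 20674 probes. Over 11117 probes it followed the values computed here on every array with slopes of 0.992 to 0.995, so its scale and direction are known. Its centring stays unknown, and its column medians were 0.0302 to 0.0626. For Gad1 and Calb2 it does not hold the probes that stood for the genes here. It holds the second Gad1 probe and the Calb2 probe printed 10 times on each array.

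Mean intensities were corrected with normexp (offset 50) and normalized by loess within arrays in limma 3.58.1 (R 4.3.3). On AP5 1 and control 5, 6 spots lay more than 50 units under their local background and pulled the fitted Cy3 background mean to −148.5 and −24.8. They were left out of the normexp fit, a choice made after the data were seen, which gave −3.65 and −2.99. Control spots were left out, repeat spots averaged, and probes kept where Cy5 was well above background on at least 5 arrays (28498 of 41174). The brightest probe stood for a gene. One limma fit of all 20 arrays gave the 6 comparisons, two-sided, adjusted over 19345 genes by Benjamini-Hochberg with a threshold of 0.05. Intervals are 95% intervals of that fit. The script was tested on simulated data. Probes were named by accession (22938), symbol (6657), synonym (3108) or the file's own name (8456).

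All 10 interneuron markers are named. From each list of related genes up to 4 with the lowest adjusted p in AP5 against control are named among those that passed. From each cell type its defining markers and the genes that passed in AP5 against control are named. Npy, Cck, Cnr1, Abat, Nr2f2 and Gphn did not pass and are named outside these rules. By likeness the 10 genes nearest to the mean of Gad1, Gad2 and Slc32a1 and the 3 nearest to each marker detected on every array are named. A few genes that these rules or lists would take in are not reported here and are not counted in the lists. The markers and lists were chosen with earlier results of these data known. The numbers in the titles were not taken to pair samples. The alternatives changed background correction, normalization, dim-probe filter, probe choice, slide, scan day, pairing, array weights and the arrays included.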

Additional observations from a re-analysis of the deposited data

Results flagged for a closer look

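In each of 40 groups of 5 arrays (10 genes in 4 groups) the highest and the lowest value were set against Dixon's 95% critical value of 0.71, and 2 groups held an array beyond it. Chance alone gives about 1 such group in 20. Vip on NVP 5 had a log2 ratio of 0.7927, while the other NVP arrays had 0.1668 to 0.2559. The array numbered 5 was also the highest for Vip in the other groups, at 0.6003 for AP5 5, 0.9026 for Ro25 5 and 0.8283 for control 5. Lhx6 on AP5 2 had a log2 ratio of 3.044, while the other AP5 arrays had 3.406 to 3.502.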

How the results depend on the processing

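The number of genes past the threshold in AP5 against control was 1665, and it was 825 with median centring, 57 with slide as a fixed block and 936 on the first scan day alone. Of those calls 49.3% were higher with AP5, against 35.8% with median centring, 26.3% with slide as a fixed block and 41.3% when normexp was fitted on all spots. The 1 interneuron marker called there (Calb2) became 0 with the scanner's own log ratio, normexp on all spots, offset 16, median centring or slide as a fixed block, 2 with the Cy5 channel alone (Dlx1 and Dlx2, without Calb2) or only probes above background on all 20 arrays (Calb2 and Dlx1), and 3 (Calb2, Dlx1 and Dlx2) with the authors' value table, slide as a random block or array weights. In the authors' value table Calb2 is the probe printed 10 times, not the one that stood for the gene. With only the 2 groups compared Calb2 had a limma adjusted p of 0.0546 and Dlx2 of 0.0452. The 1 marker in AP5 against NVP (Dlx2) became 0 with median centring, slide as a fixed block or the first scan day, and 2 with the Cy5 channel alone, the authors' value table or array weights. In AP5 against Ro25 the mean over a gene's probes gave 1 marker in place of 0. The 4 genes in Ro25 against control became 0 with the scanner's log ratio, median centring, the Cy5 channel alone, detection on all arrays, slide as a fixed block, the first scan day or only the 2 groups, 1 without background correction, with offset 16 or with array weights, and 2 with the replicate block. Leaving out 1 array at a time gave 0 to 3 markers in AP5 against control, 0 to 2 in AP5 against NVP, 0 to 1 in AP5 against Ro25 and 0 to 12 genes in Ro25 against control. The groups share the numbers 1 to 5 in their titles. Over 30 pairs of same-numbered arrays the correlation of deviations from group means ran from −0.446 to 0.798, and 13 exceeded 0.1. All 6 pairs of arrays numbered 5 lay between 0.613 and 0.798, while the pairs of the other numbers ran from −0.446 to 0.505, and the labels give no shared origin for either. The numbers as a whole were not taken to pair samples. The replicate block left the AP5 count at 1816 genes and changed no interneuron marker call. Aquantile after loess leaves ratios as they are, so it changed nothing. Signal over background limits Vip and Pvalb. Cy3 signals before correction were also low for Gad1 (71 to 124), Gad2 (63 to 96) and Calb2 (70 to 142), beside 50 to 61 for Pvalb. An offset of 50 in both channels makes such ratios smaller. On AP5 1 the Gad2 ratio was 4.78 here and 6.08 by the scanner's own log ratio.

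The following log2 differences changed sign, and the cause was not tested. None of them passed with the sign turned, and Csf1r, Map2, Pthlh, Shisa7 and Slc6a11 had passed before. With the scanner's own log ratio Dlx1 0.0107, Lhx6 0.0135 and Slc32a1 0.0001294 in NVP against control, and Gad1 0.11, Slc32a1 0.0187 and Vip −0.24 in Ro25 against control. With normexp fitted on all spots Lhx6 0.00488, Slc32a1 0.0003453 and Vip 0.0136 in NVP against control, and Gad1 0.0224 and Slc32a1 0.00277 in Ro25 against control. With no background correction Vip −0.00514 in Ro25 against control. With normexp offset 16 Gad1 0.00821 in Ro25 against control. With median centring Dlx1 0.0518, Lhx6 0.0435 and Slc32a1 0.0164 in NVP against control, and Gad1 0.0308 and Slc32a1 0.0804 in Ro25 against control. With the Cy5 channel alone Slc32a1 0.0927, Sst −0.0792 and Vip 0.00294 in AP5 against control, and Gad1 −0.0727 and Vip 0.0359 in NVP against control, and Gad2 −0.055, Pvalb 0.052 and Sst −0.0339 in Ro25 against control. With the authors' value table Slc32a1 0.0169 in AP5 against control, and Gad1 −0.0879, Lhx6 0.0123 and Slc32a1 0.00922 in NVP against control, and Pvalb 0.044 and Slc32a1 0.0242 in Ro25 against control. The Gad1 value there is of the second Gad1 probe. With mean over the probes of a gene Lhx6 0.0372 in NVP against control. With slide as a fixed block Dlx1 −0.17, Dlx2 −0.51, Gad2 −0.21, Lhx6 −0.33, Sst −0.0895, Vip 0.62, Csf1r −0.12, Map2 −0.20, Pthlh 0.0232, Shisa7 −0.0392 and Slc6a11 −0.0667 in AP5 against control, and Sst −0.0806 and Vip 0.37 in NVP against control, and Calb2 −0.0706, Dlx1 −0.44, Dlx2 −0.59, Gad2 −0.24, Lhx6 −0.0811, Pvalb 0.23 and Sst −0.0356 in Ro25 against control. With slide as a random block Slc32a1 0.00293 in AP5 against control. With the first scan day alone Slc32a1 0.0288 in AP5 against control, and Dlx2 −0.0765, Gad2 −0.0686 and Pvalb 0.0375 in Ro25 against control. With array weights Pvalb −0.0023 and Slc32a1 0.0239 in AP5 against control, and Pvalb −0.0397 in NVP against control, and Gad2 −0.00893 and Slc32a1 0.00786 in Ro25 against control. With the second Lhx6 probe Lhx6 −0.0599 in AP5 against control, and Lhx6 0.0834 in NVP against control. With the second Gad1 probe Gad1 −0.0905 in NVP against control. Leaving out 1 array at a time turned the sign of further small differences. In AP5 against control these ranges were Slc32a1 −0.0393 to 0.0225 and Vip −0.12 to 0.0952. In NVP against control these ranges were Dlx1 −0.12 to 0.11, Lhx6 −0.0724 to 0.0595, Vip −0.12 to 0.12, Slc32a1 −0.10 to 0.0803, Pvalb −0.0399 to 0.13 and Dlx2 −0.21 to 0.00228. In Ro25 against control these ranges were Calb2 −0.0336 to 0.17, Dlx2 −0.0765 to 0.15, Gad2 −0.0686 to 0.19, Pvalb −0.0734 to 0.0524, Gad1 −0.0909 to 0.0105, Slc32a1 −0.048 to 0.0222 and Vip −0.00213 to 0.23.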
